A study of Rattus norvegicus with 24 samples.

Results

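The genes described here are the growth factors, their receptors and their binding proteins on a rat ventricle microarray. They were chosen by gene symbol alone: symbols beginning with Igf, Fgf, Tgfb, Tgfa, Bmp, Vegf, Pdgf, Egf, Nrg, Inhb, Acvr or Hgf, together with Ccn1, Ccn2, Flt1 and Kdr. The array carried 70 such genes among 4651 features, and 43 of them had values on at least 2 arrays of each right ventricle group. Each of the 24 arrays compared RNA of 1 rat ventricle with a reference pool. The right ventricle was sampled in 3 conditions at day 14, labelled HYP, CHF and CON, with 6 arrays each, and the left ventricle with 2 arrays of each condition. From the title of the series, HYP is read as compensated hypertrophy and CHF as decompensated hypertrophy after monocrotaline, and CON is read as control. Monocrotaline, a pyrrolizidine alkaloid from plants, damages small lung vessels and so loads the right ventricle with pressure. Its dose, the rats' strain, age and sex, and what the CON rats received are not stated in the material used. The labels number the samples without stating that they are separate animals, so the p-values measure only how these samples vary, and that variation may be technical.

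Growth factors are mostly secreted proteins that bind receptors in the membrane of the same or a neighbouring cell. The insulin-like, fibroblast, vascular endothelial, platelet-derived and epidermal growth factors act through receptor tyrosine kinases, while TGF-beta, activins and BMPs act through receptor serine/threonine kinases that phosphorylate SMAD proteins. In the heart, IGF1 is known as a growth signal for cardiomyocytes, VEGF for endothelial cells and PDGF for fibroblasts and pericytes. CCN2, long called connective tissue growth factor, is a matricellular protein associated with fibrosis and is a known target of TGF-beta and of mechanical signals through YAP and TEAD.

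Ccn2 and Igf1 had the smallest p-values between the ventricles, and the 250 bases before their annotated start sites are shown for that reason. They are credited to RefSeq, assembly GRCr8, and lie at chr1:22624615-22624864 on the minus strand for Ccn2 and at chr7:24172282-24172531 on the plus strand for Igf1. Capitals mark matches, on either strand, to 5 motifs. The core promoter element searched was TATAAA. The box bound by the factor NF-Y was searched as CCAAT and the box bound by Sp1 as GGGCGG. A SMAD element was searched as CAGAC, and an element bound by TEAD factors as GGAATG.
Ccn2: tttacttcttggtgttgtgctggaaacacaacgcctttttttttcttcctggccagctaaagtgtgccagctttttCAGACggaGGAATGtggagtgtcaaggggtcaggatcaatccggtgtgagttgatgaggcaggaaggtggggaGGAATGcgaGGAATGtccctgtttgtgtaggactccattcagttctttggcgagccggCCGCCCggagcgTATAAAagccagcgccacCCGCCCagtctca
Igf1: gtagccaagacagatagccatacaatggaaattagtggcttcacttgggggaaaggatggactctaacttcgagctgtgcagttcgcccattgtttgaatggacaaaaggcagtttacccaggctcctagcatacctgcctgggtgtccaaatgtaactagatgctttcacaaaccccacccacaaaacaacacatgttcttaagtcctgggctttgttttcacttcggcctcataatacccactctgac
The Ccn2 window held TATAAA 31 bases before the start, 3 copies of GGAATG at 166, 101 and 92 bases, CAGAC at 174 bases and GGGCGG on the opposite strand at 43 and 13 bases, with no overlap between matches. The Igf1 window held none of the 5 motifs, which says only that these letters are not in it. GGAATG occurred in 12.1% of 33469 windows of the same length and in 7 of the 59 growth factor windows in the table. GGGCGG occurred in 30 of these 59 against 30.5% of all windows, and CAGAC in 17 of 59 against 42.9%. These matches are letters in a sequence and were not measured as binding sites.

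The deposited values are scores per probe and array that were standardised within each array, with an SD between 0.870 and 1.01, and each array was centred on its median here. A score of 0 is thus the median probe of that array, and a difference between groups is in units of array SDs, not a log2 fold change. Scores of different genes cannot be ranked as expression levels, because each is relative to the pool. An array held 2162 to 3658 values over 4803 probes, and a value for 20 (CHF right ventricle array 12) to 51 of the 70 genes. Direction was read as sample over pool and is only likely: no source states the dyes, and the lowest correlation between a pair of arrays was -0.530 across probes. Each comparison is therefore also given with the sign turned on 5 arrays, chosen by their correlations: arrays 10 and 14 among the right ventricles (both CHF), and arrays 9 (CHF), 21 and 22 (both CON) among the left. As deposited, the 3 left ventricle arrays of this set correlated at 0.0904 to 0.696 with the other left ventricle arrays. Their summed scores of the erythrocyte markers Hba-a1 and Hbb were 4.65, 10.6 and 6.57 on arrays 9, 21 and 22. Unturned left ventricle arrays 3 and 15 stood at 11.1 and 6.38, and array 5 at -15.4. Right ventricle arrays ran from -15.6 to -1.97. Turning thus moves these sums away from arrays 3 and 15, into the range of the right ventricle. Whether the sign of these arrays is reversed was not tested. Of 14 cardiomyocyte markers, 12 were on the array and all 12 were measured in the right ventricle fit, although a ratio to a pool does not give their level.

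Coverage differed by family and role. Of 36 ligands 20 could be tested in the right ventricle, of 19 receptors 14, and of 5 binding proteins 4. The PDGF family was complete, with 5 of 5 genes tested, the IGF family nearly so with 6 of 7, the FGF family had 10 of 19 and the activin and BMP family 11 of 18. In all, 61.4% of the 70 genes were tested, against 68.8% of all features. No array had a value for Tgfb1, Fgf2, Hgf, Hgfac, Bmp7, Bmp15 or Inhbe, so that the best known profibrotic ligand, Tgfb1, is not described here. The other genes with too few values were Bmp1, Bmp3, Egfr, Fgf14, Fgf17, Fgf18, Fgf5, Fgf7, Fgfbp1, Fgfr1-ps1, Fgfr4, Igf2r, Inhba, Inhbc, Kdr, Nrg1, Nrgn, Tgfa, Tgfbr3 and Vegfb. A prefix also catches genes of another function, such as Nrgn (neurogranin, a neuronal calmodulin-binding protein), Bmp2k (a kinase induced by BMP2), Bmp1 (a procollagen protease) and Fgf13 (an intracellular factor that binds sodium channels).

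The comparison of CHF with CON asks how the right ventricle labelled as decompensated differs from the control. None of the 43 genes was called in limma (adjusted p below 0.05, Benjamini-Hochberg over all 3199 features), where 0.907% of all features were called. At an unadjusted p below 0.05 there was 1 gene, Bmp2, against 8.5% of all features. The median difference of the 43 genes was -0.0873 array SDs against -0.0992 for all features, and 18 of the 43 lay above 0. With the sign turned on the 5 arrays the median of the 43 was -0.349, with 14 above 0 and again none called.

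**Figure D1:**
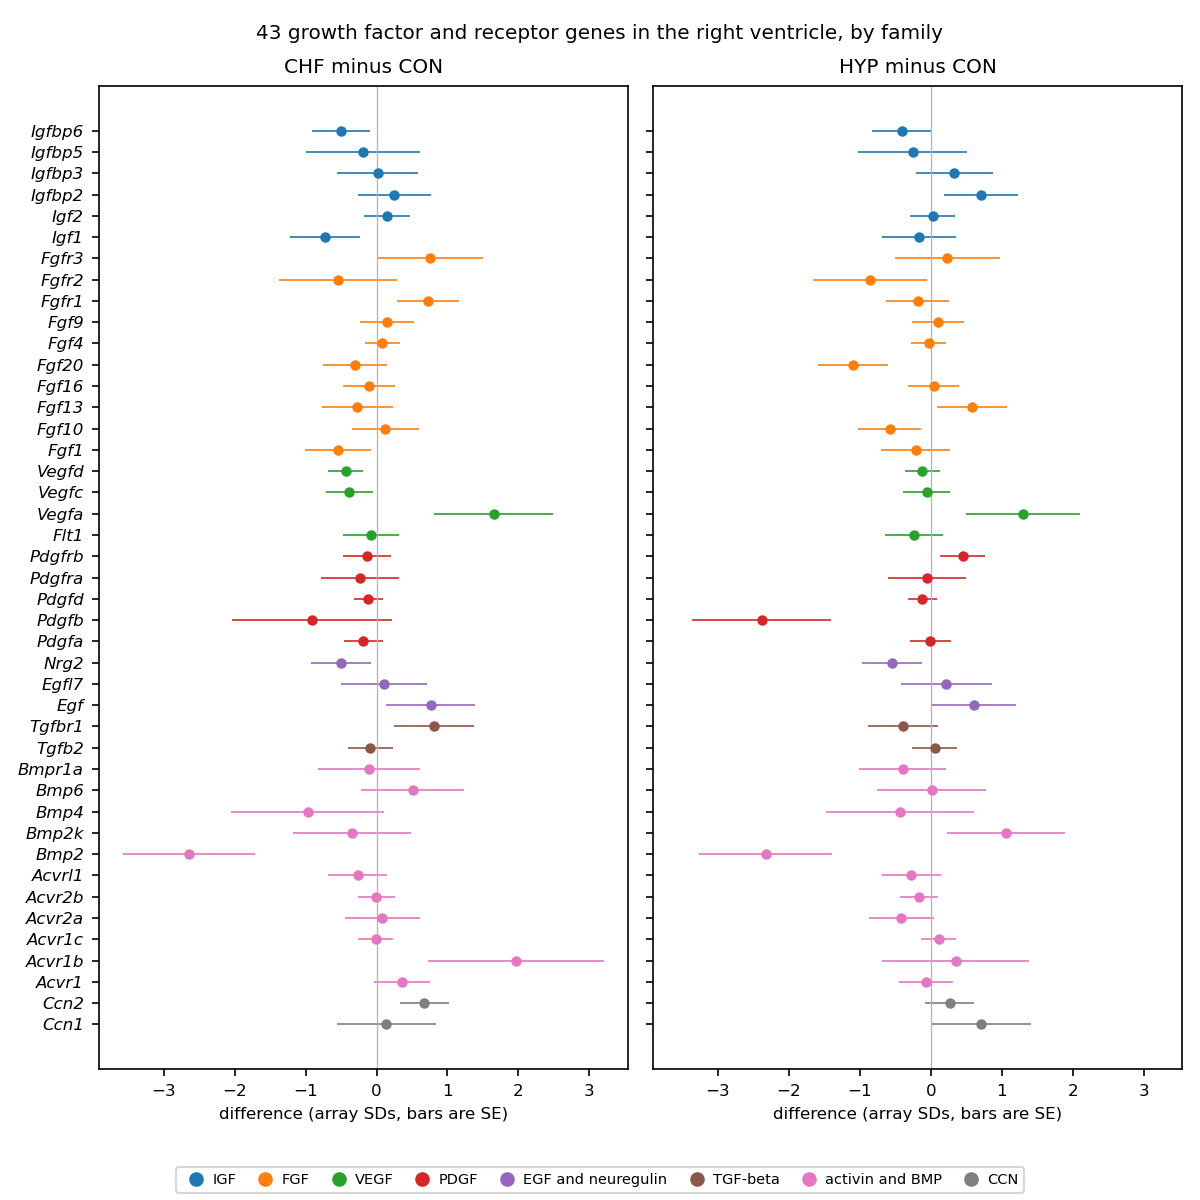
Difference of each of the 43 genes in the right ventricle, CHF minus CON and HYP minus CON, in array SDs. Points are limma estimates, bars are standard errors and colours are families; Bmp2 lies lowest on the left at -2.65, and none of the differences was called.

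Among the ligands, Bmp2, a BMP ligand of valve and cushion development, had the smallest p-value. Its CON scores were 0.392, 5.47 and 3.28 on arrays 18, 19 and 20, while the 5 CHF scores were -0.173, 0.589, 0.566, 0.665 and 0.354. The ranges overlapped through CON array 18, and 3 CON arrays had no value. The difference was -2.65 ± 0.93 (SE; n = 5 and 3), with a limma adjusted p of 0.361 and a value of -3.15 with the sign turned. Leaving out CON array 18 moved it to -3.97, with a limma adjusted p of 0.0389, the only setting of those that left out 1 array in which a gene of the set was called in this comparison. Leaving out CON array 19 moved it the other way, to -1.43 (limma adjusted p = 0.859).

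Vegfa, the main angiogenic ligand, had CHF scores in 2 separate ranges. Arrays 10 and 14 stood at 3.51 and 3.11, and arrays 9, 11 and 15 at -0.882, -0.928 and -0.587, while the 5 CON scores lay between -2.12 and 0.244. The difference of 1.65 ± 0.84 (limma adjusted p = 0.608) thus rested on arrays 10 and 14. It was 0.0098 without them and -0.995 with the sign turned. The lymphatic growth factor Vegfd was at -0.821 to -0.019 in CHF (median -0.419) and at -0.546 to 0.529 in CON (median 0.0143), a difference of -0.43 ± 0.25 (n = 6 and 6; limma adjusted p = 0.658; sign turned -0.17). Its ranges overlapped, although none of the 6 CHF scores was above 0.

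Arrays 10 and 14 also stood apart in other growth factor genes. They had been chosen by correlations of these same scores, so that standing apart is not independent of that choice. Of 35 genes with values on both and on at least 2 other CHF arrays, both arrays lay above the other CHF arrays for 17 and below them for 4. This share, 60.0%, was close to the 58.0% of 2551 features for which the same held, with 778 above and 702 below. These counts describe 2 chosen arrays and not the CHF condition. Ccn2 and Fgf13 were among the 4 in which both were lower, and Vegfa, Igf2, Igfbp5 and Fgfr2 among the 17 in which both were higher.

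Ccn2, the matricellular gene that marks the set, ranged from -0.49 to 1.30 in CHF (median 0.798), from -0.741 to 1.06 in HYP (median 0.146) and from -0.728 to 0.425 in CON (median 0.0753). Arrays 10 and 14 stood at 0.174 and -0.49, and the other 4 CHF arrays at 0.758 to 1.30. The difference CHF minus CON was 0.67 ± 0.35 (n = 6 and 6; 95% interval -0.05 to 1.39; limma adjusted p = 0.612) and 0.77 with the sign turned. Without arrays 10 and 14 it was 1.06 and not called (limma adjusted p = 0.354). Its paralogue Ccn1, another matricellular gene, was at -1.10 to 0.011 in CHF and -1.60 to 1.16 in CON, with a difference of 0.14 ± 0.70. Neither gene was called. The smooth muscle marker Acta2 was called higher in CHF (1.58 ± 0.25; limma adjusted p = 0.00132), the only call among 6 tested smooth muscle and pericyte markers, and was 1.25 and not called with the sign turned (limma adjusted p = 0.0849). Of 4 tested endothelial markers, Cav1, a caveolar coat protein, was called higher in CHF (4.92 ± 0.87, limma adjusted p = 0.0302). With the sign turned Cav1 was -3.68 (limma adjusted p = 0.194). As deposited it was the only 1 of the 4 above 0, and the median of the 4 was -0.353. The median of the 6 smooth muscle and pericyte markers was 0.335, with 4 above 0, and it was -0.092 with the sign turned. The summed score of the 3 of them with values on every array, Acta2 included, was 0.274 to 2.85 in CHF and -2.23 to 0.490 in CON. None of 8 tested fibroblast markers was called. Of these 8, 2 lay above 0 and the median was -0.354, and 4 had an unadjusted limma p below 0.05, against 8.5% of all features. The marker lists are not separate from the set: they include Flt1 and Kdr (endothelial), Pdgfra (fibroblast) and Pdgfrb (smooth muscle and pericyte). The part of these markers in the Ccn2 values was not tested. In bulk tissue, fewer cells of a type and less RNA per cell cannot be told apart.

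Igf1, the ligand of the IGF receptor, overlapped widely between conditions. Its CHF scores ran from -0.38 to 1.72 (median 0.566) and its CON scores from 0.185 to 3.37 (median 0.921), with CON arrays 17 and 19 at 2.47 and 3.37 above the rest. The difference was -0.72 ± 0.49 (n = 6 and 6; 95% interval -1.76 to 0.31; limma adjusted p = 0.725), -0.81 with the sign turned and -0.46 without CHF arrays 10 and 14. The IGF binding proteins, which hold IGFs in the extracellular space, gave differences between -0.50 for Igfbp6 and 0.25 for Igfbp2, with none called, and these 2 values were 0.29 and -0.94 with the sign turned. Igf2 differed by 0.15 ± 0.32.

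Of the receptors, 6 of 14 lay above 0 in CHF minus CON, and none was called. Fgfr1, an FGF receptor tyrosine kinase, had CHF scores of -0.18, 0.891, 0.681, 0.848 and 1.37 and CON scores of -0.831, 0.181, -0.265 and 0.908. The difference was 0.72 ± 0.44 (limma adjusted p = 0.684) and 0.03 with the sign turned. It was 0.14 for the probe measured on all 14 of the right ventricle arrays with a value. Fgfr1 was the mean of 2 probes that were measured together on 10 of the 24 arrays, where they differed by 0.15 to 3.44. On 8 right ventricle arrays its value came from 1 probe. Of the other genes with more than 1 probe, Igfbp5 had a further probe with a value on 2 arrays, Vegfb had both probes on 4 arrays, and Nrg1 had values on 3 right ventricle arrays, each from 1 probe. Acvr1b, an activin type I receptor, had only 2 CHF scores, 3.87 and -1.09, against -1.03 to 0.144 on 3 CON arrays (1.96 ± 1.24, limma adjusted p = 0.71), so that CHF array 9 alone held it up. All 5 genes of the PDGF family lay below 0, from -0.91 for Pdgfb to -0.11 for Pdgfd, with none called. In the sign-turned fit 1 of them lay above 0.

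HYP and CON were compared to ask how the right ventricle labelled as compensated differs from the same control arrays. Again none of the 43 genes was called in limma, where 0.281% of all features were. An unadjusted p below 0.05 was reached by 3 genes, Bmp2, Pdgfb and Fgf20, against 4.1% of all features. The median was -0.0613 against -0.0456 for all features, with 18 of 43 above 0. The turned arrays do not enter these 2 groups, and the sign-turned median was the same. This comparison shares its CON arrays with the previous one, so that values for Bmp2 in both rest on the same 3 CON scores.

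The 5 HYP scores of Bmp2 were 0.598, 0.347, -1.09, 2.76 and 0.972, a difference from CON of -2.33 ± 0.93 (limma adjusted p = 1.0). It was -3.66 without CON array 18 and -1.12 without CON array 19. Pdgfb, the ligand that recruits pericytes, had HYP scores of -1.71, 1.75, -1.60, -1.03 and -0.553. Its CON scores were 5.44, -0.707, 0.202, 2.32 and 1.52, with array 17 highest by far, and the difference was -2.39 ± 0.98 (n = 5 and 5; limma adjusted p = 1.0). Fgf20, an FGF ligand, stood at 0.766, -0.828 and -0.436 in HYP and at 1.04, 0.320, 0.626 and 1.72 in CON, a difference of -1.09 ± 0.49. In each of these 3 genes the HYP and CON ranges overlapped, and none had values on every array.

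Vegfa was at -0.766 to 1.5 in HYP (median 0.834), and 4 of the 6 HYP scores lay above all 5 CON scores (1.30 ± 0.80, limma adjusted p = 1.0). The PDGF receptor Pdgfrb, a pericyte marker, varied little in HYP, from 0.540 to 1.01, and more in CON, from -0.586 to 0.978 (0.45 ± 0.32). Igfbp2, an IGF binding protein, was at 0.365 to 2.03 in HYP and -1.06 to 1.54 in CON (0.71 ± 0.52). The 3 genes that mark the set were near 0: Ccn2 0.27 ± 0.35, Igf1 -0.17 ± 0.52 and Fgfr1 -0.19 ± 0.44. The intervals were wide. For Ccn2 the 95% interval was -0.46 to 0.99 and for Igf1 -1.25 to 0.92.

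**Figure D2:**
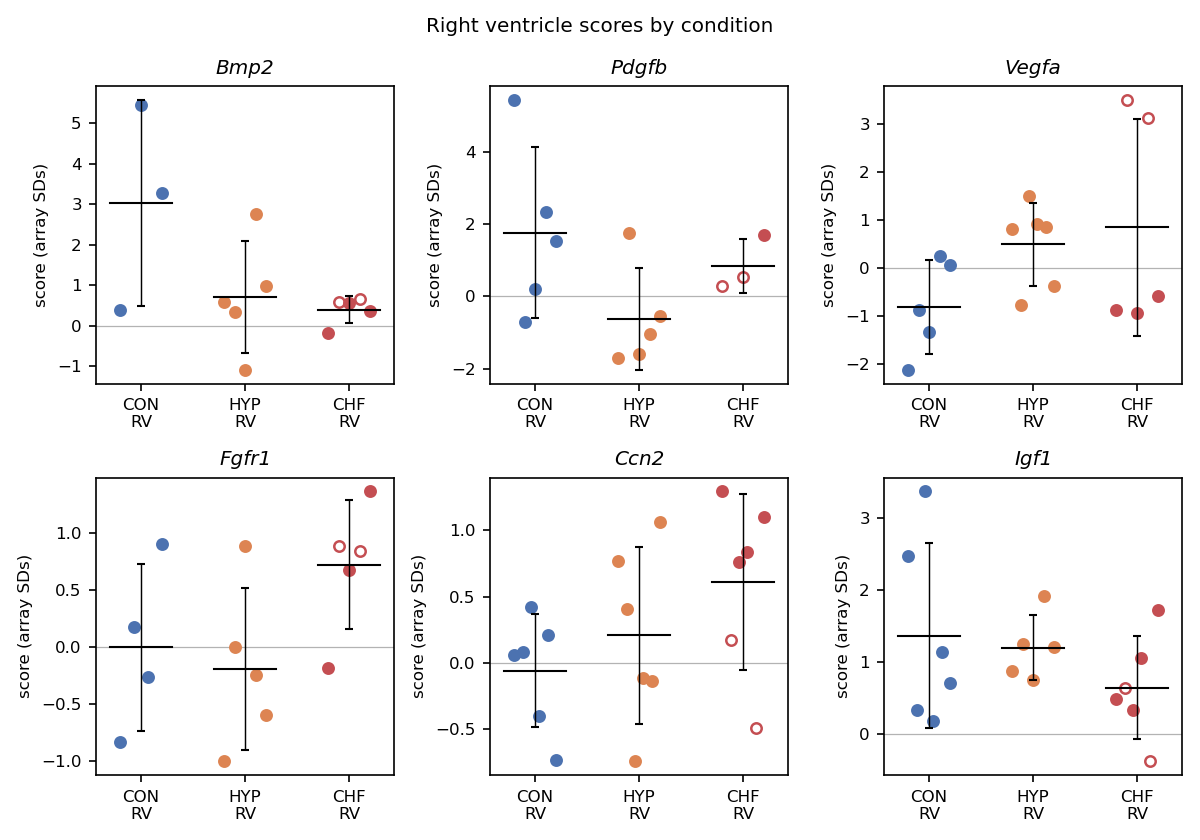
Median-centred scores (array SDs) of 6 genes on every right ventricle array with a value, by condition; bars are the mean and SD, and open points are CHF arrays 10 and 14, whose sign is in doubt. Vegfa in CHF falls into 2 ranges, with the open points at 3.51 and 3.11, and Bmp2 in CON spans 0.392 to 5.47.

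CHF and HYP were compared directly. None of the 43 genes, and 0% of all features, were called in limma, and 1 gene, Fgfr1, had an unadjusted p below 0.05 against 4.94% of all features. The median was 0.0422 (all features -0.0442), with 24 of 43 above 0, and it was -0.180 with 16 above 0 in the sign-turned fit. Fgfr1 was at -1.0, 0.002, 0.888, -0.242 and -0.594 in HYP, and 4 of its 5 CHF scores lay above 4 of these. The difference was 0.91 ± 0.41 (n = 5 and 5; limma adjusted p = 0.938). It was 0.22 with the sign turned and 0.34 for the probe measured on all 14 right ventricle arrays with a value. The other probe had a CHF score only on array 10, at 2.61.

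Tgfbr1, the type I receptor of TGF-beta, had 2 CHF scores, 1.29 and 0.937, above its 3 HYP scores of 0.144, 0.374 and -0.784 (1.2 ± 0.59). Bmp2k was lower on its 2 CHF arrays, at -0.558 and 0.291, than on its 2 HYP arrays, at 2.09 and 0.457 (-1.41 ± 0.83). These were the 2 of 43 genes whose groups did not overlap, while 2.56% of all features did not. None of the 43 was without overlap when CHF or HYP was set against CON, where 3.22% and 1.91% of all features were. Pdgfrb differed by -0.58 ± 0.32, Fgf13 by -0.85 ± 0.50 and Fgf20 by 0.79 ± 0.49, with limma adjusted p-values of 0.938, 0.938 and 0.940. With the sign turned these were -0.92, -0.15 and 0.63, and Tgfbr1 was 0.27.

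Scores of the growth factor genes varied between arrays of a group about as much as those of other genes. The within-group SD had a median of 0.741 over the 43 genes and 0.662 over all features tested. It was lowest for Pdgfd, a PDGF ligand, at 0.254 and highest for Bmp4, a BMP ligand, at 1.92. Bmp4 ran from -2.09 to 4.93 among the 6 HYP arrays alone. Pdgfd lay between -0.948 and -0.027 and Tgfb2, a TGF-beta ligand, between -1.83 and -0.06 on all 18 right ventricle arrays. They were the 2 of the 43 genes below 0 on every right ventricle array, and 72 of all 3199 features were. No gene of the set was above 0 on every such array with a value.

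Ccn2, Igf1, Pdgfa and Fgf1 were higher in the right than in the left ventricle, averaged over the 3 conditions, and were called in limma. They were 4 of the 29 genes with enough values in both ventricles, 13.8%, against 18.3% of all 2494 features. A call in the higher direction was made for 11.8% of all features and one in the lower direction for 6.54%. None of the 29 genes was called lower in this fit, which ignores the sample numbers that some right and left arrays share. With that number as a random block Fgf9, Vegfa and Vegfd were called lower, and with a fixed block Igfbp5, Tgfb2 and Vegfd. Fgf13 was also called higher with either block. At an unadjusted p below 0.05 there were 9 of 29, against 36.1% of all features. The median of the 29 was -0.128 (all features 0.0344), with 10 above 0. In the sign-turned fit none of the 29 and none of the 2494 features were called, while 6 of the 29 had an unadjusted p below 0.05.

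Ccn2 scores in the left ventricle were -1.31 and -1.03 in HYP, -1.33 and -0.90 in CHF and -1.74 and -1.86 in CON. All 18 right ventricle scores, the lowest of them -0.741, lay above all 6 of these. Ccn2 was the only gene of the 29 without overlap, against 0.481% of all features. The difference was 1.62 ± 0.26 (n = 18 and 6; limma adjusted p = 0.00071). Within conditions it was 1.38 in HYP, 1.73 in CHF and 1.74 in CON, none of them called on its own. The difference was 0.01 with the sign turned (limma adjusted p = 0.988), where the scores of left ventricle arrays 9, 21 and 22 became positive. Without the 5 arrays whose sign is in doubt, which leaves HYP and CHF only, it was 1.64 (limma adjusted p = 0.0331).

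Igf1 scores in the left ventricle were -0.798 and -0.246 in HYP, -2.10 and -0.73 in CHF and -1.14 and -1.11 in CON. Of 17 right ventricle scores 16 lay above the highest of these, the exception being CHF array 14 at -0.38. The difference was 2.09 ± 0.39 (limma adjusted p = 0.0025), with 1.72 in HYP, 2.06 in CHF and 2.49 in CON. It was 0.61 with the sign turned (limma adjusted p = 0.523) and 1.68 without the 5 arrays, where it was not called (limma adjusted p = 0.108).

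Pdgfa, which encodes the A chain of PDGF, a mitogen for fibroblasts, stood at -0.586 and 0.103 in the HYP left ventricle, -0.49 and -0.76 in CHF and -0.96 and -0.64 in CON. Of 17 right ventricle scores, which ran from -0.059 to 1.49, 14 lay above the highest left ventricle score. The difference was 1.08 ± 0.22 (limma adjusted p = 0.00411; sign turned 0.36). Fgf1, acidic FGF, which lacks a signal peptide and binds all FGF receptors, was at -0.132 and 0.03 in HYP, -0.41 and -0.47 in CHF and -1.2 and -0.39 in CON. Its right ventricle scores ran from -0.801 to 2.10, and 15 of 17 lay above the left ventricle range. The difference was 1.31 ± 0.36 (limma adjusted p = 0.0195; sign turned 0.62). Without the 5 arrays in doubt Pdgfa was 1.06 (limma adjusted p = 0.094) and Fgf1 1.14 (limma adjusted p = 0.18), and neither was called. Fgf1 was also not called without CHF left ventricle array 9 (limma adjusted p = 0.0601) or CON left ventricle array 21 (limma adjusted p = 0.0711).

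**Figure D3:**
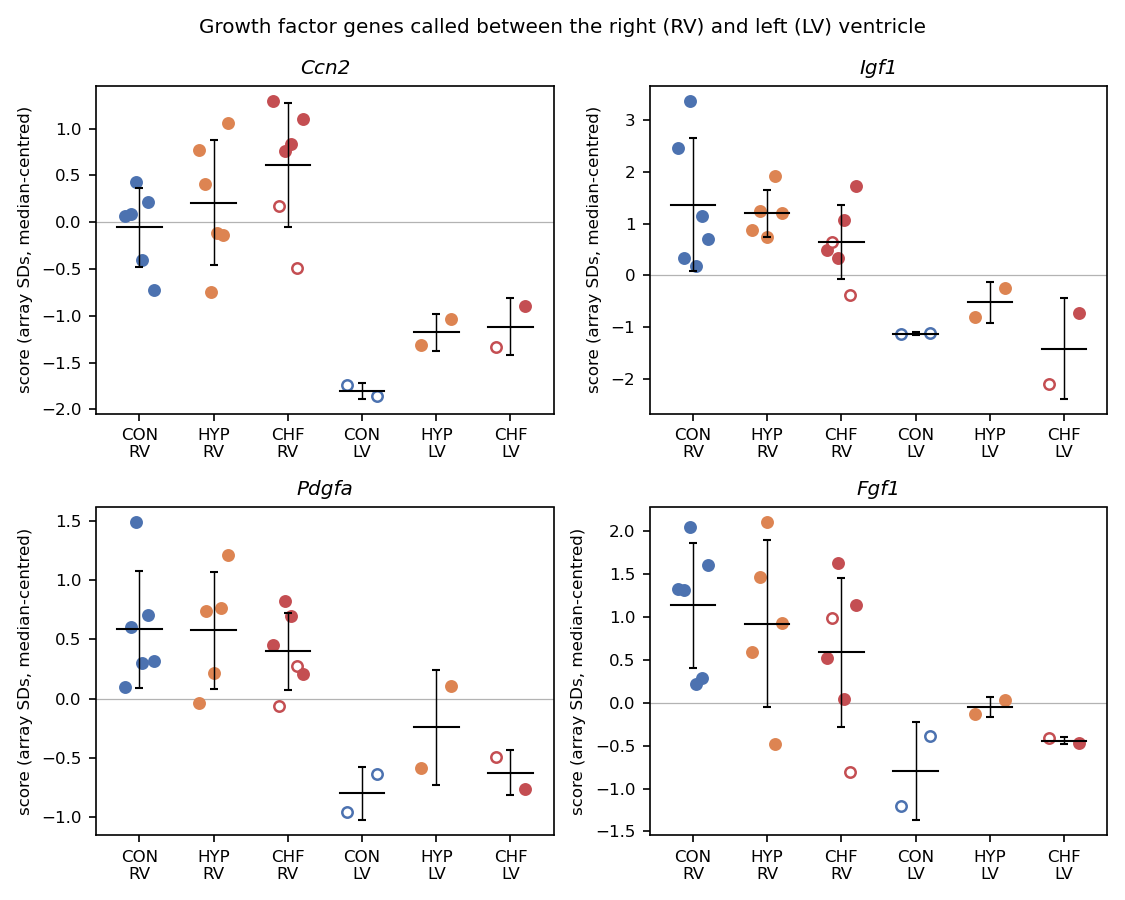
Median-centred scores (array SDs) of the 4 genes called between the ventricles, on every array with a value, by condition and ventricle; bars are the mean and SD, and open points are the 5 arrays whose sign is in doubt. For Ccn2 all left ventricle points, from -1.86 to -0.90, lie below all right ventricle points.

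The genes just short of the threshold ran in both directions. Fgf13 was higher in the right ventricle by 1.11 ± 0.39 (limma adjusted p = 0.0527). Vegfa was lower by -1.49 ± 0.62 (limma adjusted p = 0.0901), with left ventricle scores of 0.198 to 3.23 and 9 of 16 right ventricle scores below that range. Fgf9, an FGF ligand, differed by -0.76 ± 0.27 (limma adjusted p = 0.0604), Vegfd by -0.40 ± 0.19 and the endothelial secreted gene Egfl7 by -0.85 ± 0.40. Fgfr1 differed by -0.33 ± 0.30 (limma adjusted p = 0.442). With the sign turned, Vegfa, Fgf9 and Fgfr1 lay above 0, at 0.33, 0.51 and 0.48. Of the 9 receptors tested in both ventricles none was called, and 1 lay above 0, against 4 with the sign turned. Which arrays were hybridised together is unknown, so ventricle and array set cannot be told apart.

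**Figure D4:**
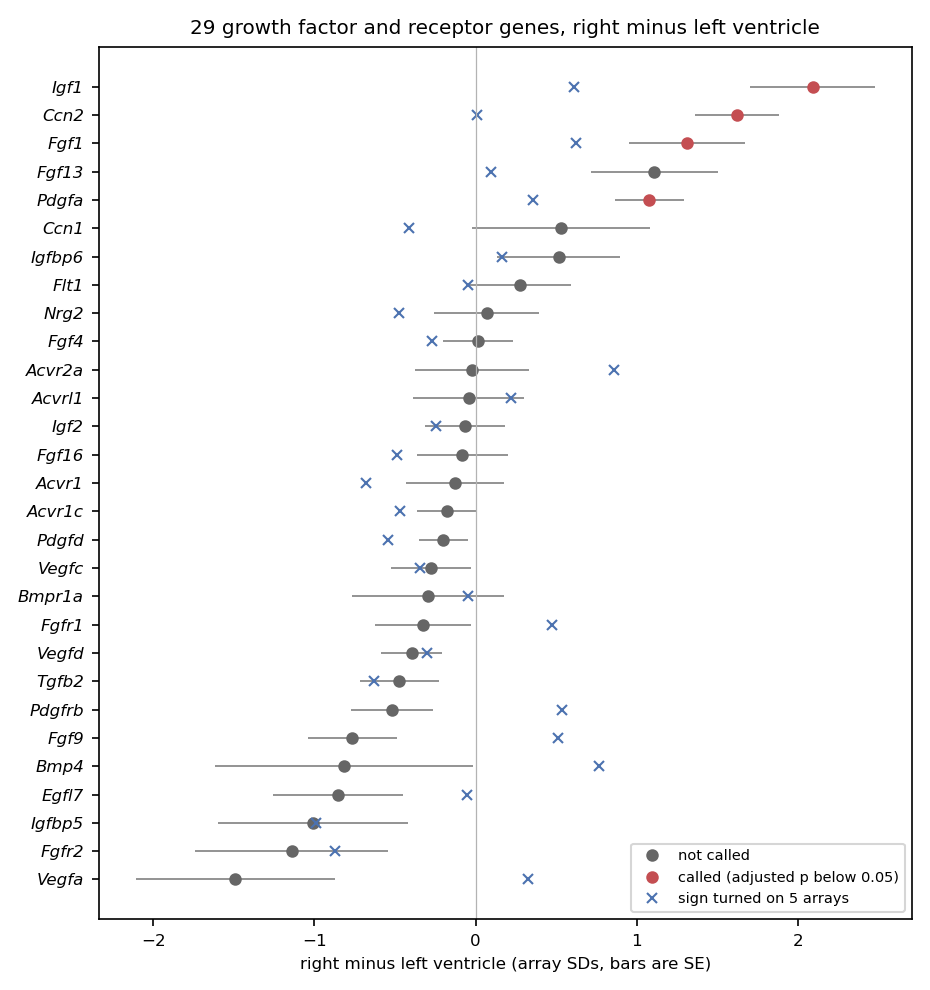
Right minus left ventricle difference of 29 genes in array SDs, averaged over conditions. Points are limma estimates with standard errors, red where called, and crosses give the estimate with the sign turned on 5 arrays; the 4 called genes lie between 1.08 and 2.09 and their crosses between 0.01 and 0.62.

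Markers of other cell types also differed between the ventricles. All 3 tested erythrocyte markers were called lower in the right ventricle: Hba-a1 by -6.29, Hbb by -5.89 and Alas2 by -1.91. The summed score of Hba-a1 and Hbb was -15.6 to -1.97 on the right ventricle arrays and 4.65 to 11.1 on 5 of the 6 left ventricle arrays, but -15.4 on HYP left ventricle array 5. On that array Ccn2 was at -1.03, below every right ventricle score, and Igf1, Pdgfa and Fgf1 were at -0.246, 0.103 and 0.03, the highest of their left ventricle scores. Of 10 tested cardiomyocyte markers 2, Ckm (-2.14) and Myl3 (-2.95), were called lower in the right ventricle, and their median was -0.951. Of 6 tested fibroblast markers 2, Vim (1.16) and Lum (1.10), were called higher. Of 5 tested smooth muscle and pericyte markers Acta2 (0.58) was called higher, but only 2 of the 5 lay above 0, with a median of -0.051. The part of these cell type differences in the 4 called genes was not tested.

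The left ventricle was compared between conditions on 2 arrays a group, whose spread was taken to be that of all 6 groups. In limma none of the 29 genes and 0% of all features were called in any of the 3 comparisons. At an unadjusted p below 0.05 there were 0 genes for CHF minus CON, 2 for HYP minus CON and 1 for CHF minus HYP, where 0.882%, 1.84% and 3.01% of all features passed. Fgfr1 scores were -0.834 and -0.203 in HYP, 0.516 and 0.96 in CHF and 1.61 and 0.985 in CON. HYP was thus lowest, with HYP minus CON at -1.81 ± 0.61 and CHF minus HYP at 1.26 ± 0.61. Pdgfrb scores were 0.50 and -0.436 in HYP, 1.17 and 1.86 in CHF and 0.72 and 1.60 in CON, with HYP minus CON at -1.13 ± 0.53 and CHF minus HYP at 1.48 ± 0.53. The limma adjusted p-values of these differences were 0.958 to 0.996. CHF array 9 and both CON arrays are among those in doubt, and with their sign turned HYP minus CON was 0.78 for Fgfr1 and 1.19 for Pdgfrb.

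Vegfa in HYP minus CON (-2.01 ± 1.29), Ccn2 (0.68 ± 0.55), Fgf9 (-0.64 ± 0.56) and Fgfr1 (-0.56 ± 0.61) in CHF minus CON and Egfl7 in CHF minus HYP (1.31 ± 0.82) completed the 3 lowest p-values of each left ventricle comparison, and each of these had an unadjusted p above 0.05. With the sign turned, 2 genes, Ccn2 and Fgf9, were called in HYP minus CON, out of 96 features.

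Whether a condition effect differed between ventricles was tested as a difference of effects. None of the 29 genes and 0% of all features were called in limma, for CHF or for HYP. At an unadjusted p below 0.05 there were 0 genes for CHF, against 2.73% of all features, and 3 for HYP, against 2.49%. The 3 were Vegfa (3.31 ± 1.51), Fgfr1 (1.63 ± 0.73) and Pdgfrb (1.58 ± 0.62), each with a limma adjusted p of 1.0. Their values with the sign turned were -1.60, -0.96 and -0.75. For CHF the smallest p-values belonged to Fgfr1 (1.28 ± 0.73), Vegfc (-0.84 ± 0.61) and Vegfa (2.0 ± 1.53), which were -1.49, 0.65 and -2.37 with the sign turned. Ccn2 gave -0.01 ± 0.64 for CHF and -0.36 ± 0.64 for HYP. With the sign turned these were 2.36 (limma adjusted p = 0.203) and 3.24, which was called (limma adjusted p = 0.0228). Igf1 gave -0.43 ± 0.94 and -0.77 ± 0.95, and -0.37 and 1.48 with the sign turned.

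The other genes of these pathways were counted in 5 lists. In the 3 right ventricle comparisons none of the lists held a called gene. In CHF minus CON the median was -0.19 over 20 genes of the SMAD route and its extracellular modulators, 0.05 over 22 receptor tyrosine kinase signal transducers and -0.03 over 36 other growth factors and receptor kinases. It was 0.22 over 15 early growth response genes, of which 12 lay above 0, and -0.43 over 11 heparan sulphate and small proteoglycan genes, of which 3 did. With the sign turned the 5 medians were 0.08, -0.15, -0.05, 0.44 and -0.37, so that the first and the second changed sign. In HYP minus CON these 5 medians were -0.06, -0.03, -0.04, 0.18 and -0.28.

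Between the ventricles the SMAD list had 3 of 19 genes called lower in the right: Smad1 (-1.01), which carries BMP signals, its transcriptional target Id2 (-0.84) and the BMP antagonist Chrd (-0.89). None of that list was called higher. Over all features 6.54% were called lower and 11.8% higher. Of 22 other growth factors and receptors 4 were called higher and none lower: Epha3 (1.30), an ephrin receptor, Gfra1 (1.13), a co-receptor for GDNF, Ngfr (1.06), the low-affinity neurotrophin receptor, and Ccn3 (0.94), a relative of Ccn2. Of 17 signal transducers Map2k1 (0.85) was called higher and the phosphatase Ptpn11 (-1.61) lower. Of 13 early growth response genes Ier5 (1.05) was called higher and Btg1 (-0.87) lower. Of 11 proteoglycan genes Lum, already counted among the fibroblast markers, was called higher. The list as a whole ran lower in the right ventricle: 3 of the 11 lay above 0, with a median of -0.63. An unadjusted limma p below 0.05 was reached by 8 of the 11, against 36.1% of all features. No gene of these lists was called between the ventricles with the sign turned.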

How the data were processed

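RNA was measured on 2-colour arrays of 24 rat ventricle samples against a reference pool. The authors deposited 1 score for each probe on each array, and missing values were left missing. Scanner, dyes, normalization and log base were not stated in the material used. Each array was centred on its median and probes of a symbol in the platform annotation were averaged; 4278 of 4803 probes had 1 symbol. All 70 genes were found in the RefSeq table by Entrez identifier. Linear models were fitted by limma 3.58.1 under R 4.3.3, with moderated variances and, for blocks, statmod 1.5.0. P-values were adjusted by Benjamini-Hochberg over every feature measured on 2 or more arrays in each group. The right ventricle fit used 18 arrays and the others all 24 in 6 groups. The code was tested on simulated data. The design had been written for scores, and no sample was left out.

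The genes, lists and rules were chosen with earlier results of these data known. Named with values were Igf1, Ccn2 and Fgfr1, every called gene, the 6 smallest p-values of each right ventricle comparison, the 3 smallest of each other comparison, genes with several probes and called list genes. Others were named after their values were seen. Alternatives changed centring, scaling, sign, filter, array weights, probes, samples and block.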

Additional observations from a re-analysis of the deposited data

Results flagged for a closer look

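In 3 of 116 groups of a gene and a right ventricle condition (2.59%), a single array lay far from the rest by Dixon's ratio, which chance does in about 1 of 20 groups. Fgf9, an FGF ligand, was at 1.46 on HYP array 5, and the other 4 HYP scores ran from -0.084 to 0.253. Nrg2, a neuregulin, was at 1.38 on CON array 19, with the others between -0.289 and 0.057. Vegfc, a lymphatic growth factor, was at 1.58 on CON array 17, with the others between -0.805 and -0.551.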

How the results depend on the processing

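Across the alternatives, 83 of 95 counts of called growth factor genes stayed within 1.5 times the reported count, as did 196 of 198 with 1 array left out. Most of these were counts of 0 that stayed 0, because only the comparison of the ventricles had called genes. Between the ventricles most of the settings other than leaving out 1 array moved the count beyond that range. Turning the sign on 5 arrays moved most. Called genes became 0 between the ventricles, 2 in HYP minus CON of the left ventricle and 1 (Ccn2, 3.24) in the HYP difference of effects. Vegfa became -0.995 in CHF minus CON of the right ventricle and Fgfr1 0.475 between the ventricles. In the left ventricle, CHF minus CON became -1.58 for Ccn2, 1.83 for Fgf9 and 1.52 for Fgfr1, HYP minus CON became 0.777 for Fgfr1, 1.19 for Pdgfrb, 2.90 for Vegfa, -1.65 for Igf1 and -2.97 for Ccn2, and CHF minus HYP became -0.0945 for Egfl7 and 1.21 for Igf1. The CHF difference of effects became -1.49 for Fgfr1, 0.647 for Vegfc, -2.37 for Vegfa and 2.36 for Ccn2, and the HYP one -0.745 for Pdgfrb, -1.60 for Vegfa, -0.964 for Fgfr1 and 1.48 for Igf1. Between the ventricles, 2 genes were called on features with values on every array, 12 with array weights, 8 with the sample number as a random replicate block, 9 with a fixed replicate block on 12 arrays, 10 without CHF right ventricle arrays 10 and 14, 1 without the 5 arrays, and 0 within HYP, 0 within CHF and 0 within CON. Fgfr1 was 0.329 within HYP. The Ccn2 difference of CHF effects was 0.377 with array weights, 0.168 with the random replicate block and 0.372 without CHF arrays 10 and 14. The random replicate block added Fgf13 (higher in the right) and Fgf9, Vegfa and Vegfd (lower) to the 4 genes, and the fixed one Ccn1 and Fgf13 (higher) and Igfbp5, Tgfb2 and Vegfd (lower). The labels do not say what a shared number means. Deviations of same-numbered arrays correlated at 0.285, 0.416 and 0.337 for numbers 3, 5 and 15, and at -0.297, 0.0227 and -0.0455 for 9, 21 and 22, which include arrays whose sign is in doubt. With 1 array left out, called genes ranged from 3 to 7 between the ventricles (7 without CHF right ventricle array 14) and from 0 to 1 in CHF minus CON of the right ventricle. Signs changed for Igf1 (-0.404 to 0.233) and Fgfr1 (-0.464 to 0.115) in HYP minus CON of the right ventricle, Igf1 in CHF minus CON (-0.973 to 0.395) and Ccn2 in CHF minus HYP (-0.16 to 0.274) of the left, and the CHF difference of effects of Igf1 (-1.12 to 0.252) and Ccn2 (-0.231 to 0.207). The cause of these changes was not tested. The number of arrays, 2 a group in the left ventricle, and missing scores limit precision.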
